A study of Drosophila melanogaster with 2 samples.

Results

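The genes fkh, cad, hkb, tll and byn, which set up the gut primordia of the Drosophila melanogaster embryo, were examined for binding of GATAe, a zinc-finger transcription factor of the GATA family. They were chosen by name, and they are 5 of the 13968 protein-coding genes on the chromosome arms. Each gene's window was its body plus 2 kb upstream. Chromatin came from whole embryos, 0 to 24 h old, of flies with an insertion that expresses GATAe fused to enhanced green fluorescent protein, and it was precipitated with an antibody to GFP. The 2 biological replicates made up 1 group, and no second genotype or treatment was set beside it. All cells of the embryo were mixed, so binding in few cells and weak binding in many cannot be told apart. The highest peak of the series lay in GATAe itself, with a signal of 958.

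The gut tube of the fly embryo forms from primordia at both ends of the blastoderm. The receptor tyrosine kinase Torso acts at both poles and switches on tailless (tll), which encodes an orphan nuclear receptor, and huckebein (hkb), which encodes a zinc-finger protein needed for the endoderm. The homeobox gene caudal (cad, the Cdx counterpart) patterns the posterior end and acts again in the hindgut and the midgut. The gene fork head (fkh, the FoxA counterpart) is needed for foregut and hindgut, and brachyenteron (byn, the T-box Brachyury counterpart) for the hindgut. GATAe acts in the endoderm after serpent (srp), another GATA gene.

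A thresholded summit stood in the windows of 2 of the 5 genes, fkh and cad. The list used was the conservative one, which the authors thresholded at an irreproducible discovery rate of 0.01 (IDR, how many of the peaks are estimated not to recur). By the same rule and list, 19.0% of all protein-coding genes were occupied, that is, held at least 1 summit. The fkh window held 1 summit and the cad window 3, while hkb, tll and byn held 0. At least 3 summits, as in cad, stood in 2.04% of genes. The windows differed in length, at 6.29 kb for fkh, 14.4 kb for cad, 3.63 kb for hkb, 4.09 kb for tll and 10.2 kb for byn.

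The 4 summits, with 75 bp of dm6 sequence to either side, are shown first because the GATA words around them are compared below. Bases read 5′ to 3′ on the plus strand of the RefSeq copy of the assembly, and capitals mark each GATA core, written TATC where it lies on the other strand. The first cad intronic stretch holds no core, and none of the 4 touches an annotated UTR. The fkh stretch is chr3R:28585428-28585578, the cad upstream stretch chr2L:20770503-20770653, and the cad intronic stretches are chr2L:20773605-20773755 and chr2L:20774500-20774650.
fkh upstream: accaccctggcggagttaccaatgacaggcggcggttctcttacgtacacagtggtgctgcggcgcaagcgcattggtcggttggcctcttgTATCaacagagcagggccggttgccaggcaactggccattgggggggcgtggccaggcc
cad upstream: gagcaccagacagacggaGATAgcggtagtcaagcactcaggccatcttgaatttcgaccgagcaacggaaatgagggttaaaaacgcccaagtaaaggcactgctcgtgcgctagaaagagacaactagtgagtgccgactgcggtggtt
cad intron, first: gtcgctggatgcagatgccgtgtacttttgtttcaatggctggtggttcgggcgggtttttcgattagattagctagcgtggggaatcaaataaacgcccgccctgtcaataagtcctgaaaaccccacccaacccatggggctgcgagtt
cad intron, second: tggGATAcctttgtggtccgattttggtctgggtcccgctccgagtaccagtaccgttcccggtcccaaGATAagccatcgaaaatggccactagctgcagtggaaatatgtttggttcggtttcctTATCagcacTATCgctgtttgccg

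For contrast, the same stretch is given around the strongest candidate peak of each gene with no thresholded summit. These are chr3R:4346158-4346308 for hkb, chr3R:30850953-30851103 for tll and chr3L:11934170-11934320 for byn. All 3 stretches are without a GATA core, so no base is in capitals. At tll this rests on the choice of the highest signal, 25.4, since a candidate of 25.1 with a lower IDR, described below, has the longer GATA word 26 bp from its summit. Weaker candidates that overlap those of hkb and byn, with signals of 20.8 and 12.3, have a core 8 and 1 bp from their summits. The hkb and byn stretches are coding sequence throughout, with 66.2% and 65.6% G and C, and the tll stretch is intergenic with 49.0%. Among the thresholded summits, the fkh stretch has 63.6% and the cad stretches 51.7% to 52.3%, so this share does not set the candidates apart.
hkb candidate: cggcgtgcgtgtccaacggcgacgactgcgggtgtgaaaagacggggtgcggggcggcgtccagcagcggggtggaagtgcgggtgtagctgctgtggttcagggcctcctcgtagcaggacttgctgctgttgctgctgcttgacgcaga
tll candidate: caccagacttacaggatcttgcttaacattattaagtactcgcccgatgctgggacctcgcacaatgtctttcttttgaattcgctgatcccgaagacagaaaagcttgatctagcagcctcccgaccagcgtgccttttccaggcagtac
byn candidate: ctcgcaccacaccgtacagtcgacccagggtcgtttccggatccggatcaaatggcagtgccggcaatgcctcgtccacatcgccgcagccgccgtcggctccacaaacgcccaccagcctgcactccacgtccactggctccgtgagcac

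The caudal gene carried the strongest and the most peaks of the 5 genes. cad (FBgn0000251) lies at 20770731 to 20783135 on the plus strand of 2L, with annotated transcription start sites (TSS) at 20770731 and 20770894. Its upstream peak covered 20770398 to 20770757, with the summit in intergenic sequence 153 bp before the first TSS. The signal, the authors' measure of peak strength, was 143, rank 625 of the 3047 peaks of the list, whose median was 92.2. Among the 1491 summits within 500 bp of a TSS its rank was 350. In the replicates' own ranked lists the same place had a signal of 59.8 in replicate 1 and 80.2 in replicate 2, and both replicates listed it past the threshold. Their summits lay 52 bp apart.

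The other cad peaks were intronic and weaker. The first, at 20773500 to 20773859, had its summit 2949 bp into the gene and a signal of 91.1, rank 1564. Its signal was 42.4 in replicate 1, which listed it past the threshold, and 43.7 in replicate 2, which did not, with an IDR of 0.0131 there. The second, at 20774395 to 20774754, had its summit 3844 bp into the gene and a signal of 72.2, rank 2257. Neither replicate alone listed it past the threshold, with a signal of 35.9 and an IDR of 0.0234 in replicate 1 and a signal of 34.9 and an IDR of 0.0955 in replicate 2. The replicate summits were 12 bp apart, the closest of the 4 places. The upstream peak was thus found by each replicate alone, the first intronic peak by 1 of them, and the second by the pair.

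The single fkh peak lay just upstream of the gene. fkh (FBgn0000659) lies at 28580976 to 28585264 on the minus strand of 3R, with TSSs at 28585264 and 28585112. The peak covered 28585323 to 28585682, with the summit in intergenic sequence 239 bp before the first TSS. Its signal was 115, rank 977 of the list and 534 of the 1491 summits near a TSS. Replicate 1 gave the place 52.9 and replicate 2 gave it 55.7, both past their own thresholds, and the summits were 59 bp apart. No thresholded summit lay in the fkh transcription unit itself.

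**Figure D1:**
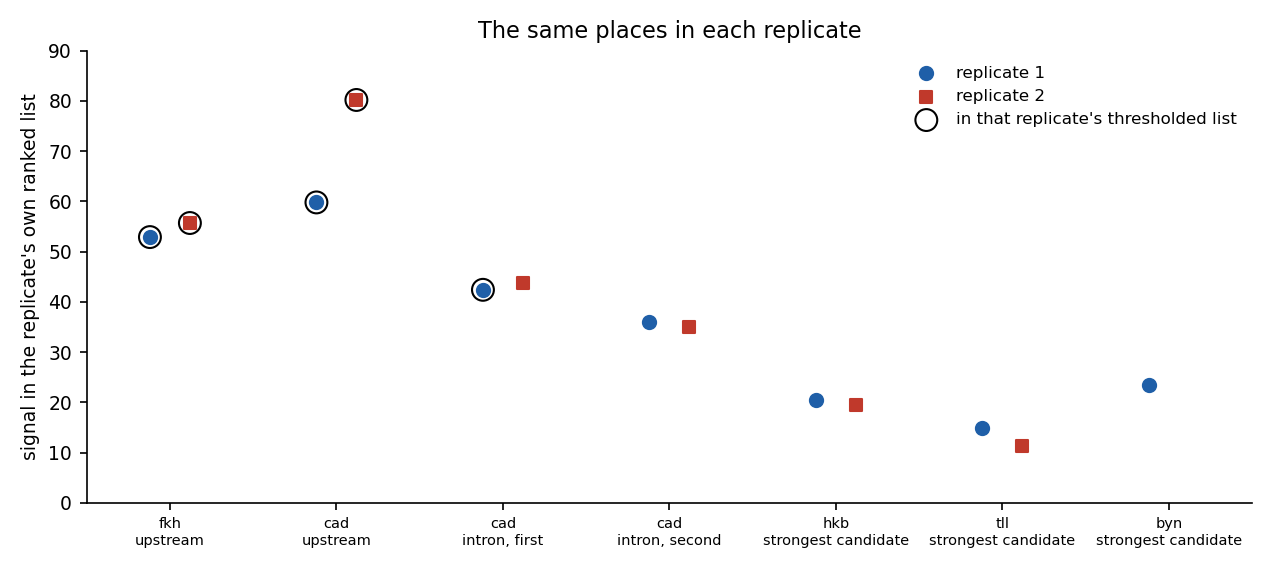
Signal at the 4 thresholded summits and at the strongest candidate of hkb, tll and byn, in the ranked list of replicate 1 (blue circles) and replicate 2 (red squares), on a linear axis from 0; where several candidates overlap, the strongest is drawn, and black rings mark places in that replicate's thresholded list. Both upstream peaks are ringed in both replicates, the first cad intronic peak in replicate 1 alone, and the byn candidate has no value in replicate 2.

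The same 2 genes were found in every thresholded list. The series-level list from pooled reads held the same 4 peaks and 1 further cad peak of signal 13.4 at 20774605 to 20774964, which overlaps the second intronic peak. In that list 17.7% of genes were occupied. Replicate 1's own list held 1 fkh and 2 cad summits, with 17.5% of genes occupied, and replicate 2's held 1 of each, with 12.4%. No thresholded list had a summit at hkb, tll or byn.

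Below the threshold, all 5 genes had candidate peaks. The ranked list of the replicate pair holds 62931 candidates of any strength, and 81.1% of protein-coding genes have one in their window. The 5 windows held 31, of which 4 were past the threshold and 27 were not. The strongest one below it at each gene had a signal of 41.2 at fkh, 48.5 at cad, 38.1 at hkb, 25.4 at tll and 49.4 at byn. The byn value was the highest of these and the tll value was the lowest of the 5. The fkh candidate of 41.2 lay 1500 bp before the first TSS, in an exon of the noncoding gene lncRNA:CR43126. Its IDR was 0.498, and the longer GATA word described below lay 44 bp from its summit.

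**Figure D2:**
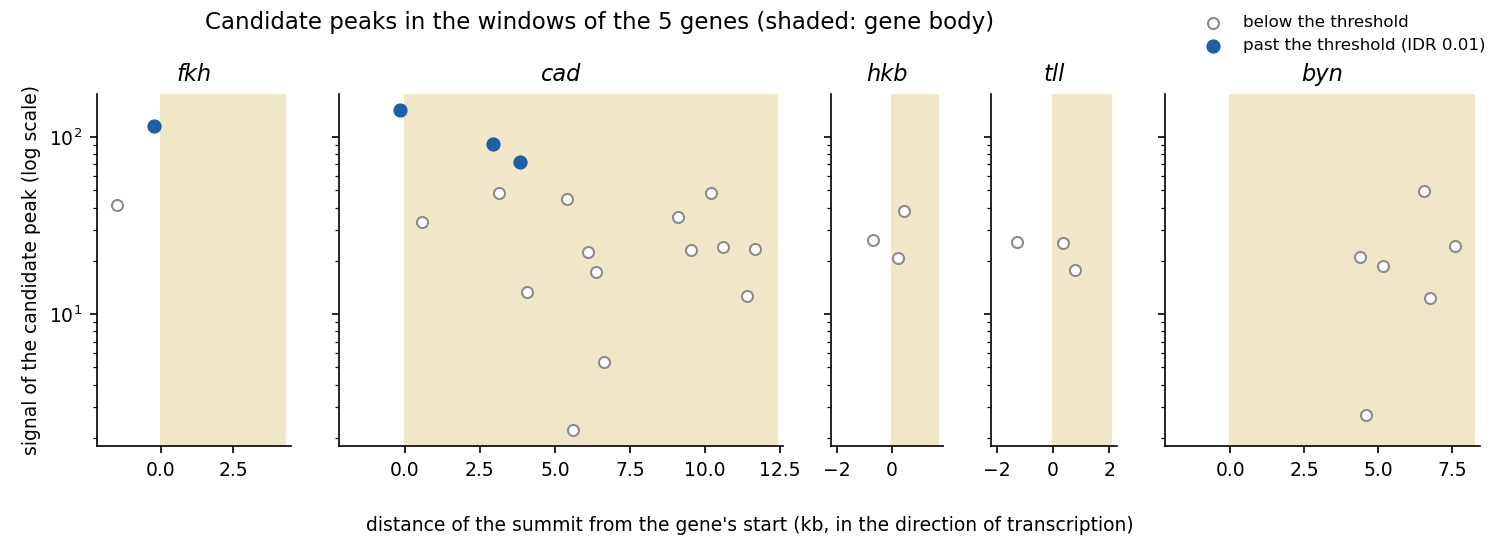
Signal (log scale) of each candidate peak of the replicate pair against the distance of its summit from the gene's start in kb, in 5 panels for fkh, cad, hkb, tll and byn; shading is the gene body, filled points are past the authors' threshold and open points are below it. The filled points are 1 at fkh and 3 at cad, with signals from 72.2 to 143, and the open points at hkb, tll and byn reach 38.1, 25.4 and 49.4.

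The hkb candidates were weak in both replicates. hkb (FBgn0261434) lies at 4345015 to 4346646 on the minus strand of 3R. Its strongest candidate covered 4346053 to 4346412, with the summit in coding sequence 413 bp into the gene and an IDR of 0.131. Overlapping candidates had a signal of 20.5 in replicate 1 and, at the stronger of those in replicate 2, 19.5. A weaker candidate, at 4347138 to 4347497, lay 672 bp upstream with a signal of 26.1 and an IDR of 0.635, and it had the GATA word described below.

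The strongest tll candidate of the replicate pair was weaker than those of the other genes, though not in replicate 2 alone. tll (FBgn0003720) lies at 30852315 to 30854400 on the plus strand of 3R. A candidate 1287 bp upstream, at 30850848 to 30851207, had a signal of 25.4, and one 361 bp into the gene in an intron, at 30852496 to 30852855, had 25.1. Their IDRs were 0.642 and 0.576. The second also had the longer GATA word described below within 50 bp of its summit. Overlapping the first, replicate 1 had a candidate of signal 14.8 and replicate 2 had overlapping candidates of 11.4 and 8.90. The highest tll signal in replicate 2 was elsewhere, 19.7 at a summit 649 bp into the gene, beside 19.5 for hkb and 18.2 for byn in the same list.

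The byn candidate was the nearest to the called peaks in strength. byn (FBgn0011723) lies at 11927693 to 11935919 on the plus strand of 3L, inside the long gene CG44837 on the opposite strand. The candidate covered 11934065 to 11934424, with the summit in byn coding sequence 6552 bp into the gene and an IDR of 0.108. Its signal was 23.4 in replicate 1, and no candidate overlapped it in replicate 2's ranked list. For comparison, the cad candidate just outside the threshold, at 20780754 to 20781113 in an intron, had a signal of 48.1 and an IDR of 0.0205. Signals of 48.1 and 49.4 thus went with different IDRs.

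Against all protein-coding genes, cad and fkh were high and the other genes were not. Only 19.0% of genes had a thresholded summit, so the high place of cad and fkh largely follows from the call and is no separate result. With each gene given the signal of its strongest candidate, or none, 94.2% of genes were below cad, 91.7% below fkh, 71.8% below byn, 59.1% below hkb and 34.9% below tll. The median gene had 32.8, so tll was below the median and hkb close to it. A longer window has more room for a strong candidate, and hkb and tll have the shortest of the 5 windows, at 3.63 and 4.09 kb. The cad window also held many candidates for its length, at 1.18 per kb, against 0.318 for fkh, 0.826 for hkb, 0.734 for tll, 0.587 for byn and a median of 0.501 over genes. The fkh window was therefore sparse in candidates, although one of its 2 was called.

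**Figure D3:**
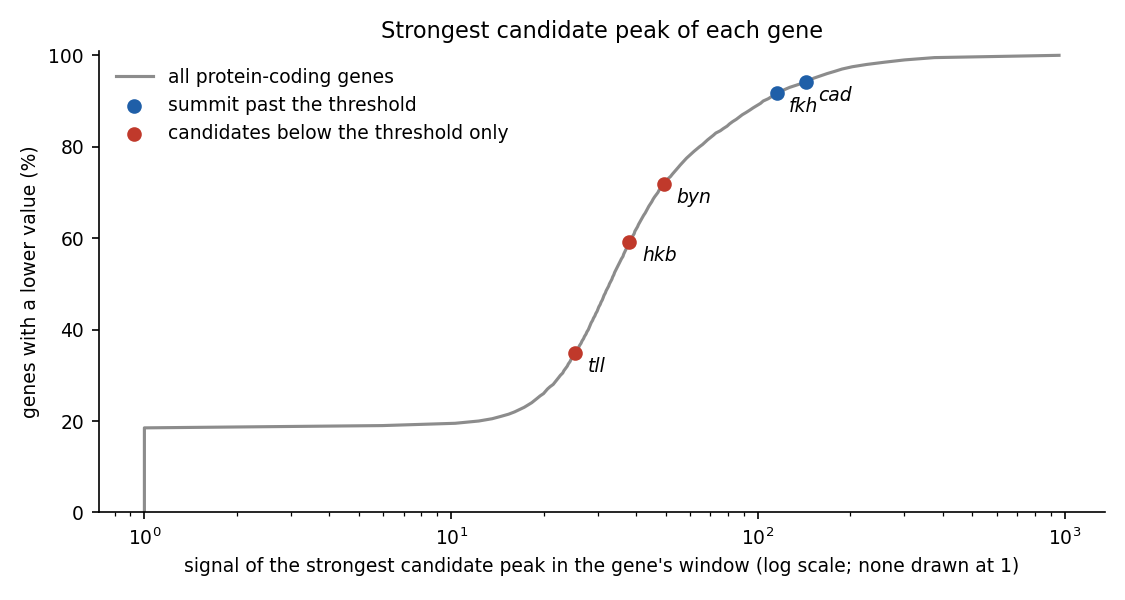
Share of protein-coding genes with a lower value (%) against the signal of the strongest candidate in the gene's window (log scale, genes with none drawn at 1); the grey line is all 13968 genes, blue points are fkh and cad and red points are hkb, tll and byn. The points for cad and fkh stand at 94.2% and 91.7% and the point for tll at 34.9%.

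GATA words lay close to some of the summits at fkh and cad and not to others. Both the core GATA and a longer word, the core preceded by A or T and followed by A or G, were counted within 50 bp of a summit on either strand. The longer word is the form that GATA factors prefer, and each one also counts as a core. The longer word lay at 1 of the 4 summits, the second cad intronic peak, and over the whole list 46.0% of summits had it. The core lay at 2 of 4, that peak and the fkh peak, against 72.1% of the list. Windows centred 500 bp to either side of the 4 summits had the longer word in 1 of 8 and the core in 5 of 8. In flanks of the whole list the shares were 20.6% and 48.1%. With 4 summits, of which 3 share a gene, these counts are a description and were not tested.

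The summit with the best GATA match was the weakest of the 4. In the second cad intronic peak the centre of a longer word lay 4.5 bp from the summit, and it reads GATAAG, a form found at 28.9% of the list's summits. Another lay 53.5 bp away, and the stretch printed above holds 4 cores. At the cad upstream peak the nearest core lay 55.5 bp from the summit, in the longer form and just outside the counted window. Further longer words stood 103.5 and 132.5 bp to its other side. The first cad intronic peak had longer words 160.5 and 185.5 bp from its summit. They lay within 50 bp of the summit of a weaker overlapping candidate, at 20773701 to 20774060, with a signal of 48.5. At fkh the core nearest the summit was 18.5 bp away, not in the longer form, and the nearest longer word was 272.5 bp away, outside the peak.

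**Figure D4:**
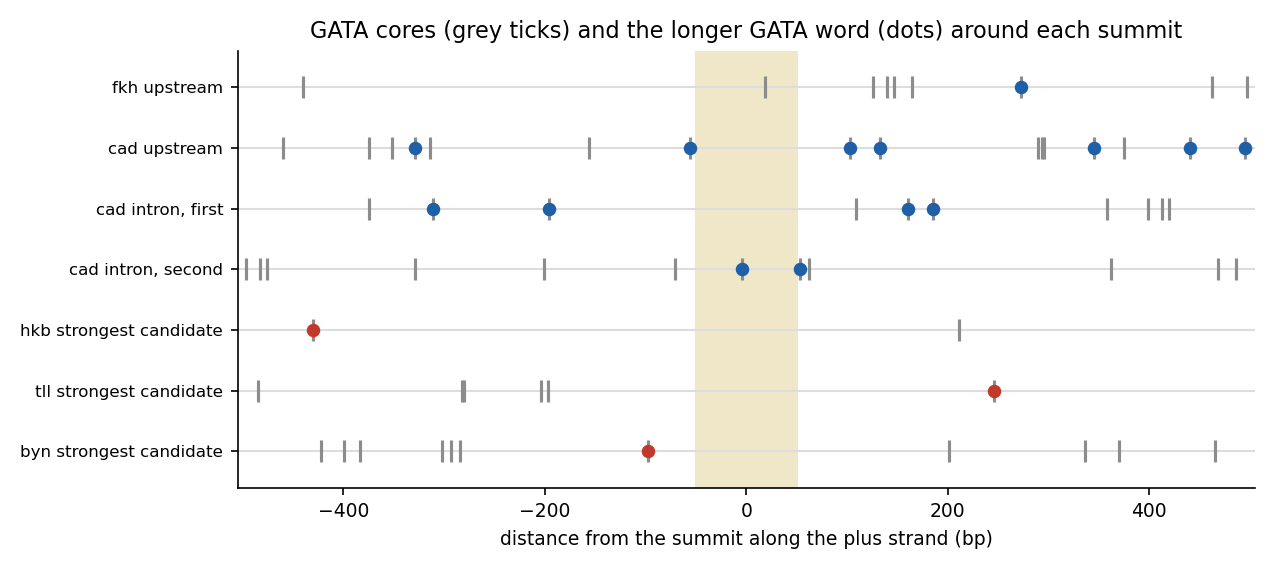
Position of each GATA core (grey ticks) and longer GATA word (dots, blue at thresholded summits and red at candidates) within 500 bp of the summit, in bp along the plus strand, for the 4 summits of fkh and cad and the strongest candidate of hkb, tll and byn; the shaded band is 50 bp to either side. A dot falls in the band at the second cad intronic peak alone, and no tick falls in it at the hkb, tll and byn candidates.

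Over whole windows, the longer GATA word was denser at cad, byn and fkh than at tll and hkb. The longer word occurred 2.22 times per kb at cad, 1.91 at fkh, 1.96 at byn, 1.47 at tll and 1.38 at hkb, and the median gene had 1.86. Of all genes 67.9% were below cad, 55.0% below byn, 52.6% below fkh, 29.2% below tll and 24.8% below hkb. The core occurred from 6.12 times per kb at tll to 7.64 at cad, with a median of 6.75. The byn window, with no thresholded summit, held 20 longer words, and the fkh window held 12. The byn window is also longer, at 10.2 kb against 6.29 kb, and per kb byn and fkh were close, at 1.96 and 1.91. Among the 27 candidates below the threshold in the 5 windows, 6 had the longer word within 50 bp, 22.2%, beside 16.5% of all candidates below the threshold on the arms. The core alone went the other way, at 9 of the 27, 33.3%, beside 42.8%. None of the 6 with the longer word was at byn.

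Many of the weaker candidates lay in coding sequence. Of the 27 below the threshold, 10 had the summit in coding sequence, 37.0%, beside 19.2% of all candidates below it. The windows are gene bodies plus 2 kb, and 25 of the 27 lay inside a gene, 92.6%, beside 71.6%. The coding shares are therefore not directly comparable. All the byn candidates but an intronic one were among the 10. Of all candidates past the threshold 1.95% were in coding sequence, and of the 4 at fkh and cad 0 were, too few to compare. Overlapping candidates share sequence, so the 27 are not independent.

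Recognition words of the gut factors themselves are rare at summits in general. TGTTTAC, a forkhead word, TTTATG, a caudal word, and AAGTCA, a tailless word, were each within 50 bp of 0 of the 4, on either strand. They lay at 2.94%, 10.9% and 4.32% of the list's summits and in 2.36%, 9.98% and 5.18% of its flank windows, so 0 of 4 is no result about fkh and cad.

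Genes that act with the 5 were occupied unevenly. Each list was written with earlier results of these data known, and windows differ in length, so the shares stand only beside the 19.0% of all genes. Of 15 genes of the posterior gut tube and its invagination, 9 were occupied, 60.0%. The highest signals were 958 at GATAe, 426 at srp, 199 at otp, a homeobox gene of the hindgut, and 162 at drm, a zinc-finger gene of the odd-skipped family. Of 12 genes of the terminal (Torso) pathway, 5 were occupied, 41.7%, with 205 at gro, which encodes the corepressor Groucho, 158 at Raf, 144 at rl, the MAP kinase gene, and 118 at fs(1)N. The windows of Raf and rl are 50.4 and 56.5 kb long. The receptor gene tor had no summit in the conservative list, but the list from pooled reads held 1 there. Its strongest candidate had a signal of 72.5. Of 12 genes that pattern the blastoderm, only nub was occupied, 8.33%, with a signal of 155 in a window of 42.5 kb. The longest window of all these lists, that of twi at 65.0 kb, held no summit. The signals of 143 at cad and 115 at fkh were below those at drm and otp.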

How the data were processed

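Peak lists on dm6 were deposited for each replicate and for the series. Both replicates enter the series lists, per the labels' record of what each file was derived from. The authors deposited a score from the IDR (at least 830, an IDR of 0.01, in thresholded lists), a signal value and, in ranked lists, −log10 of the IDR. At fkh and cad, a peak had the same signal in every series list that held it. Signals in the replicates' own lists differ from these and are not on the same scale. The aligner was not given in the sources used here, nor was the peak caller. The depth behind each value is unknown. A control experiment named in the labels was not analysed here. Peaks of the ranked list of the pair with a score of 830 or more number 3149, and 102 of them are not in the conservative list.

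Coordinates are 1-based. Genes came from Ensembl release 115 and sequence from RefSeq, and 99.9% of 16237 annotated start codons read ATG. Occupied means that at least 1 summit fell in the window. Replicate peaks were matched by at least 1 bp of overlap. Ranks are by signal. No test was run, since there was 1 group. Python 3.11.15, numpy 2.4.6, pandas 2.3.3 and matplotlib 3.10.9 were used, and counting was tested on simulated data. Members, gene lists and motifs were chosen with earlier results of these data known. All 5 members are named, and at most 4 occupied genes of each other list, by signal. fs(1)ph, phl (Raf) and mist matched under older names. The alternatives were other peak lists, windows and distances.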

Additional observations from a re-analysis of the deposited data

How the results depend on the processing

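Counts were recomputed under other settings, which gave 35 values over all counts and settings. Of these, 22 stayed within 1.5 times the main count. Occupied genes were 2 in every alternative except the gene body alone, which left 1, cad, since the fkh summit is upstream. The 4 summits became 2 with the gene body alone, 2 among peaks at or above the median signal, and 2 to 3 with 1 replicate left out. The summits with the longer GATA word, 1 of 4, became 0 with either replicate left out and 0 among those stronger peaks, because the second cad intronic peak is absent there. They became 2 of 5 at an IDR of 0.05, 2 of 4 within 100 bp and 3 of 4 within the whole peak. The summits with a core, 2 of 4, became 3 of 3 without replicate 2 and 1 of 2 without replicate 1. They were 1 of 2 among those stronger peaks and 4 of 4 within the whole peak. A wider search can only add words, and no share of the whole list is given here for these alternatives. A replicate's own list changes both which peaks are present and where their summits lie, by 12 to 74 bp between replicates at the 4 places. No paired analysis was possible because there was 1 group.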

Other observations

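Outside the windows, the nearest peaks of the conservative list lay 3.52 to 46.7 kb away. Upstream of fkh, a peak at 28590608 to 28590967 on 3R had a signal of 83.5, with its summit 3.52 kb beyond the window in an exon of the divergent noncoding gene lncRNA:CR43126. Its nearest protein-coding TSS was that of fkh, 5524 bp away. Downstream of cad, the next peak was 201 bp from the TSS of Pomp, with a signal of 85.2, and the next after byn was 135 bp from that of CG7252, 11.6 kb away, with 88.6. No peak of the list lay within 20 kb of the windows of hkb or tll, where the nearest were 46.7 and 33.4 kb away.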
